A study of Mus musculus with 8 samples.

Results

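Voltage-gated calcium channels and plasma membrane calcium pumps were described here by 4 genes: Cacna1a and Cacna1e, which encode pore-forming subunits of channels that let calcium into neurons, and Atp2b1 and Atp2b2, which encode pumps that extrude it. The members were all sites that the authors' deposited table of aged against young cortex cells assigns to these 4 genes, 16 of its 2055 sites. They were chosen by gene name, with earlier results of these data known. The table itself holds only sites within the limits on these values given below. Cacna1a had 2 listed sites, Cacna1e 2, Atp2b1 5 and Atp2b2 7.

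The aged cells came from the cortex of mice with the genotype APOBEC1-YTH that were 12 to 14 months old when tamoxifen began, at 20 mg/kg every 24 h for 5 days, with tissue taken 7 days after the last dose. APOBEC1-YTH is a cytidine deaminase fused to a domain that binds N6-methyladenosine (m6A), so that C-to-U changes next to a methylated A mark m6A in reads. This group made up all 8 libraries, 2 sublibraries sequenced over 4 lanes each. Young cells came from a companion series, and the sources used here give neither their age, genotype, treatment and kit, nor the number of mice, nor the cells in which the transgene is driven. A deaminase without the m6A-binding domain was not analysed here. The sample protocols describe dissociated, fixed whole cells, while the series' design text describes sorted neuronal nuclei. The table holds sites and not expression. All 6 general and excitatory neuron markers looked for had a listed site, as did Slc1a2 of 4 astrocyte markers, and 0 of the 3 inhibitory neuron, 3 microglial and 2 endothelial markers did.

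The table covers 2623 young and 846 aged cells and gives 1 value per age, with no value per mouse or library, so the values carry no replicate error and no test was run. For each site it gives the share and number of cells called methylated and the C-to-U fraction averaged over all cells, called mean C-to-U here and printed as a percent. Dividing that mean by the share gives the fraction within methylated cells, called conversion below. Intervals in parentheses are exact Clopper-Pearson 95% intervals of a share, or, for a ratio of shares, exact binomial intervals given the number of methylated cells over both ages, and cover counting error only. A cell with no read at a site counts as unmethylated, so fewer cells with the transcript, less RNA per cell and less methylation cannot be told apart in a share or a mean. The authors' adjusted p was under 0.05 at every listed site. The sources used here do not give the test behind it, nor whether cells or mice were its units. The adjusted p-values below are therefore copied only and are not read as a measure of the spread between mice. The smallest absolute log2 ratio of the mean is 0.58, and the fewest methylated cells over both ages at a site are 25. The table thus holds no site outside these limits. At 0.925% of listed sites no aged cell was methylated, and all 16 member sites had at least 2.

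Calcium that enters a neuron through voltage-gated channels triggers transmitter release and starts signalling cascades, and the pumps bring the concentration back down. Cacna1a encodes the pore of P/Q-type channels, which drive release at many fast synapses. Cacna1e encodes the pore of R-type channels. Atp2b1 is a widely expressed pump of the family, and Atp2b2 is a fast pump prominent in neurons. m6A is laid down on adenosines within a short consensus, is frequent in long exons and near stop codons, and is read by proteins that affect the splicing, translation and decay of mRNA.

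Sites are numbered here from the 5' to the 3' end of each gene. The sequences below show all sites of the channel genes, the retained intron site and a coding site of Atp2b1 that were higher in aged cells, Atp2b1 site 1, whose edited base does not follow an A, and 3 of the 7 sites of Atp2b2: site 3 beside an alternatively spliced junction, site 5 with the lowest log2 ratio and site 7 with the largest difference of the gene. They were read from GENCODE M21 transcripts (GRCm38, the assembly of mm10) on the strand of the gene, which is plus for Cacna1a and Atp2b1 and minus for Cacna1e and Atp2b2. Each has 10 bases on either side of the edited base, and the 5 capitals run from 3 bases before it to 1 base after it, so that the fourth capital is the edited C.

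Cacna1a site 1: gcaagcaGAACCtgctggcca

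Cacna1a site 2: atccccaGAACGctgccagcc

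Cacna1e site 1: ccagagtGAACCggatctctc

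Cacna1e site 2: ccaagagAAACGggaatactt

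Atp2b1 site 1: ttgtgatGGGCGacatggcca

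Atp2b1 site 2: ccagattGAACGtgacattac

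Atp2b1 site 5: tgacgatGAACAggatgacgg

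Atp2b2 site 3: agaagaaAGACAaaaaagcca

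Atp2b2 site 5: agagaggGAACCagacctttc

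Atp2b2 site 7: ataataaTAACGaattaatta

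The edited base was C at 16 of 16 sites, but the counting of positions was chosen by this, so it is no result. This C followed an A at 15 sites, against 76.8% of the 1982 listed sites where the transcript has C at that position. The exception was Atp2b1 site 1. DRAC (D being A, G or T and R being A or G, read on the gene's strand up to the edited C) held at 14 of 16 sites, against 64.9% of the 1982. With a base other than G after the C (DRACH, which contains DRAC), 8 of 16 sites matched, against 46.0%. The 5 bases GAACC occurred at 3 of the 16 sites, which are site 1 of Cacna1a, site 1 of Cacna1e and site 5 of Atp2b2, and at 1.41% of the 1982. GAACC was singled out after the sequences were seen. Its 3 sites went in different directions, as the values below show. The 41 bases around each of the 16 sites were found in no other annotated gene.

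The 2 channel genes differed in direction. Both listed sites of Cacna1a had a lower mean C-to-U in aged cells, and both sites of Cacna1e had a higher one. Over the table, 41.5% of sites had a higher and 58.5% a lower mean in aged cells.

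Cacna1a site 1 lay on chromosome 8 at position 84559091 (mm10), in coding exon 19 of 47 of Cacna1a-201, at codon 788 of 2368. Mean C-to-U here was 4.17% in young against 0.0133% in aged cells, a log2 ratio of aged over young of -8.30. The authors' deposited table gives it an adjusted p of 5.82e-06. Only 12 of the 2036 listed sites with a methylated aged cell had a lower log2 ratio. Methylated cells were 139 young cells, 5.30% (4.47 to 6.23), and 13 aged cells, 1.54% (0.821 to 2.61), a share 3.45 times lower in aged cells (1.95 to 6.64). The larger part of the difference lay within methylated cells, where conversion was 78.8% in young against 0.862% in aged cells. If the fraction is converted reads over all reads of a cell, at least 1 of those 13 cells had 116 or more reads at this base. Reads per site are not in the table, and whether the fractions of both ages were computed in the same way is not given in the sources used here, so the conversion of the ages may not be comparable.

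Cacna1a site 2 lay 849 bases further along the spliced transcript, at position 84566197 in coding exon 20, codon 1071. Here more aged than young cells were methylated, 1.65% (0.908 to 2.76) against 0.496% (0.264 to 0.846), or 14 and 13 cells. The mean was still lower, 0.0167% in aged and 0.177% in young cells (log2 ratio -3.40, with 0.0242 as adjusted p per the authors' deposited table). Conversion was 35.7% in young against 1.01% in aged cells. The 2 Cacna1a sites thus shared a low conversion in aged cells and differed in the direction of the share.

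Cacna1e site 1 lay on chromosome 1 at position 154471449, in coding exon 21 of 47 of Cacna1e-203, at codon 1053 of 2273. Mean C-to-U here was 2.29% in young against 7.44% in aged cells (log2 ratio 1.70, with 4.98e-20 as adjusted p per the authors' deposited table). Both parts were higher in aged cells: the share of methylated cells was 5.95% (5.07 to 6.92) in young against 12.9% (10.7 to 15.3) in aged cells, and conversion was 38.4% against 57.8%. By difference of the mean it ranked 16 from the highest of the 2055 sites. At 46.3% of the coding sequence it lay close, in relative position, to Cacna1a site 2 at 45.2%.

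Cacna1e site 2, the only member site in a 3' UTR outside Atp2b2, lay at position 154394249 in the last exon, 4144 bases after the stop codon and 3518 before the end of Cacna1e-203. Mean C-to-U was 1.92% in young against 3.61% in aged cells (log2 ratio 0.91, with 2.58e-06 as adjusted p per the authors' deposited table). The share was 3.32% (2.66 to 4.08) in young against 4.37% (3.10 to 5.98) in aged cells. The ratio of the aged to the young share was 1.32 (0.872 to 1.96), an interval that holds equality. Conversion was 58.0% and 82.6%. Of the 4 annotated transcripts of Cacna1e with a coding sequence, 2 hold this site.

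**Figure D1:**
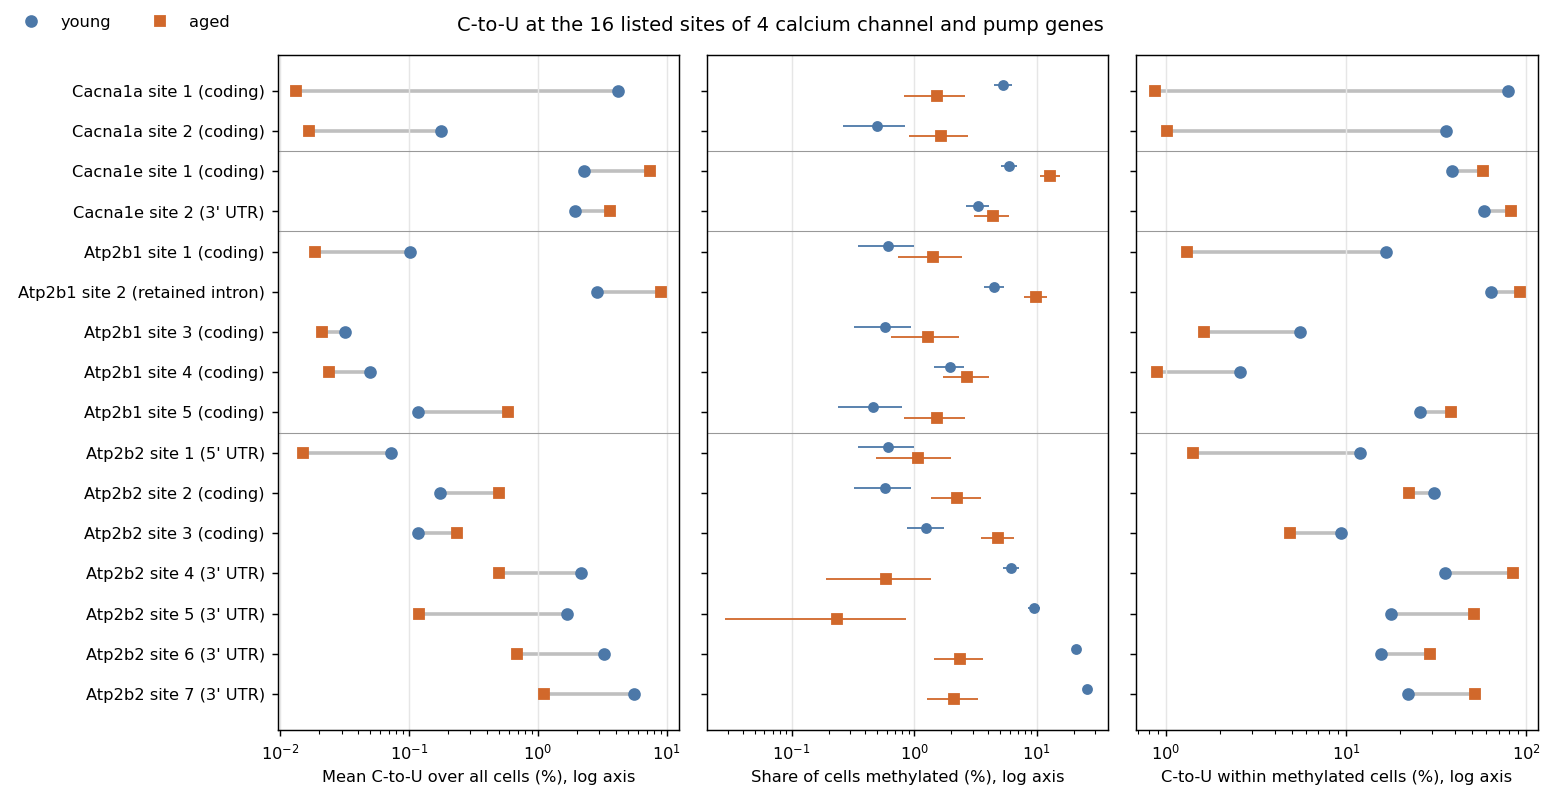
Mean C-to-U over all cells, share of cells methylated and conversion (C-to-U of methylated cells only), in percent on log axes, at the 16 sites in young (circles, 2623 cells) and aged (squares, 846 cells) cells. Horizontal bars in the middle panel are 95% Clopper-Pearson intervals, and grey lines in the other panels join the ages. Both Cacna1a sites lie near 1% within aged methylated cells, while the last 4 sites of Atp2b2 have fewer methylated aged cells but a higher fraction within them.

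Among the pump genes, Atp2b1 had 1 site of high C-to-U and 4 of low C-to-U. By share of methylated cells 5 of 5 sites were higher in aged cells, against 75.4% of all listed sites, and the mean was higher at 2 of 5. The direction of the mean followed conversion, which was higher at the same 2 sites and lower at the other 3.

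Atp2b1 site 2, the site of high C-to-U, lay on chromosome 10 at position 98988332. It is not in an exon of any coding transcript of Atp2b1 and lies in the single exon of a transcript that GENCODE classes as a retained intron, 132 bases before that transcript's end. Mean C-to-U was 2.86% in young against 8.99% in aged cells (log2 ratio 1.65, with 6.91e-23 as adjusted p per the authors' deposited table). Of young cells 4.50% (3.74 to 5.36) were methylated and of aged cells 9.81% (7.89 to 12.02), with conversion of 63.6% and 91.6%. Of the 38 listed sites placed in retained intron transcripts, in 32 genes, 60.5% were higher by mean.

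The 4 coding sites of Atp2b1 had means between 0.0317% and 0.117% in young cells. At site 1 (position 98968922, the last base of codon 2) the mean was 0.102% in young against 0.0186% in aged cells, or -2.45 as a log2 ratio. Its share was 0.610% (0.349 to 0.989) against 1.42% (0.735 to 2.46), and its conversion 16.7% against 1.31%. This is the site with no A before the edited C, so it lacks the A beside which the assay marks m6A. At site 3 (position 98991125, codon 284, exon 6) the mean was 0.0317% and 0.0210%, or -0.59 as a log2 ratio, which is close to the smallest difference the table lists. Its share was 0.572% (0.320 to 0.941) against 1.30% (0.651 to 2.31), and its conversion 5.53% against 1.62%. At site 4 (position 98994659, codon 327, exon 8) it was 0.0497% and 0.0242%, or -1.04 as a log2 ratio, with a share of 1.94% (1.45 to 2.55) against 2.72% (1.73 to 4.05) and conversion of 2.56% against 0.890%. At these 3 sites the mean and the conversion were lower in aged cells while the share was higher. The ratio of the aged to the young share was 2.33 (1.004 to 5.24) at site 1, 2.27 (0.945 to 5.30) at site 3 and 1.40 (0.816 to 2.33) at site 4, so its counting interval held equality at sites 3 and 4 and lay just above it at site 1.

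Atp2b1 site 5 (position 98999843, codon 483, exon 10 of 21) went the other way. Its mean was 0.117% in young against 0.588% in aged cells, or 2.32 as a log2 ratio, with 12 methylated young cells, 0.457% (0.237 to 0.798), and 13 methylated aged cells, 1.54% (0.821 to 2.61). Conversion was 25.7% and 38.3%. The authors' deposited table gives adjusted p-values of 0.0432, 0.0300, 0.00262 and 0.00193 for sites 1, 3, 4 and 5.

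Atp2b2 split by position along the transcript: its 4 sites in the 3' UTR had a lower mean and a lower share in aged cells, its 2 coding sites were higher by both, and its 1 site in the 5' UTR was lower by mean. Over the table, 24.1% of 3' UTR sites were higher by mean and 49.2% by share, 57.8% of coding sites by mean and 94.7% by share, and 37.0% of 5' UTR sites by mean. No other gene of the 4 had more than 1 listed site in a UTR.

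The 3' UTR sites lay on chromosome 6 within 181 bases, between 86 and 266 bases after the stop codon of Atp2b2-201, and can lie on the same reads. Site 7 (position 113748271) had a mean of 5.60% in young against 1.11% in aged cells, and a share of methylated cells of 25.5% (23.9 to 27.3) against 2.13% (1.27 to 3.34). Site 6 (position 113748289), 18 bases upstream, had a mean of 3.25% and 0.693%, and a share of methylated cells of 20.8% (19.2 to 22.4) against 2.36% (1.45 to 3.63). These were the 2 member sites methylated in the most young cells, 670 and 545 of them against 18 and 20 aged cells. Site 4 (position 113748451) had a mean of 2.18% and 0.496%, and a share of methylated cells of 6.18% (5.29 to 7.17) against 0.591% (0.192 to 1.37). Site 5 (position 113748407) had a mean of 1.68% and 0.120%, and rested on 249 young and 2 aged methylated cells, 9.49% (8.40 to 10.7) and 0.236% (0.0286 to 0.851). Its share was 40.2 times lower in aged cells, with a counting interval of 11.0 to 333, and those of the other 3 sites were 8.79 to 12.0 times lower. The log2 ratios of the mean were -2.13, -3.80, -2.23 and -2.34 for sites 4 to 7.

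Conversion at the same 4 sites was higher in aged cells. It was 35.2% in young against 83.8% in aged cells at site 4, 17.7% and 50.9% at site 5, 15.7% and 29.3% at site 6, and 21.9% and 52.0% at site 7. The aged values are means over 5, 2, 20 and 18 cells. A lower share with a higher fraction within methylated cells was found at 20.9% of the 697 listed 3' UTR sites. For sites 4 to 7 the authors' deposited table lists 0.0188, 0.00486, 0.0221 and 0.000638 as adjusted p. Annotated ends of the transcript differ here: Atp2b2-202 ends at position 113748294, so sites 6 and 7 lie beyond its end and sites 4 and 5 within it, while the other 3 annotated transcripts with a coding sequence hold all 4. The direction was the same on either side of that end.

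The coding sites of Atp2b2 had lower levels. At site 2 (position 113842185, codon 49, exon 2 of 20) the mean was 0.174% in young against 0.503% in aged cells, or 1.53 as a log2 ratio, and methylated cells were 0.572% (0.320 to 0.941) and 2.25% (1.36 to 3.49). At site 3 (position 113805468, codon 300, exon 6) it was 0.117% and 0.235%, which is 2.01-fold higher, and the share was 1.26% (0.868 to 1.76) against 4.85% (3.50 to 6.52). Conversion was lower in aged cells at both, 30.5% and 22.4% at site 2 and 9.33% and 4.86% at site 3, so that these sites were higher through the number of cells. Their adjusted p-values in the authors' deposited table were 4.01e-10 and 3.72e-19. Site 3 lies 7 bases before the end of its exon, and the bases after the exon differ between transcripts, which give 3 different sequences of 21 bases around the site. The sequence printed above is that of Atp2b2-201.

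Atp2b2 site 1 lay in the 5' UTR, 122 bases before the start codon, at position 113842452. The mean was 0.0726% in young against 0.0150% in aged cells (log2 ratio -2.27, with 0.0393 as adjusted p per the authors' deposited table). Methylated cells were 0.610% (0.349 to 0.989) and 1.06% (0.488 to 2.01), a ratio of 1.74 (0.679 to 4.19), and conversion was 11.9% and 1.41%. It lies 267 bases upstream of site 2 in the same exon, and the 2 sites differed in the direction of the mean.

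**Figure D2:**
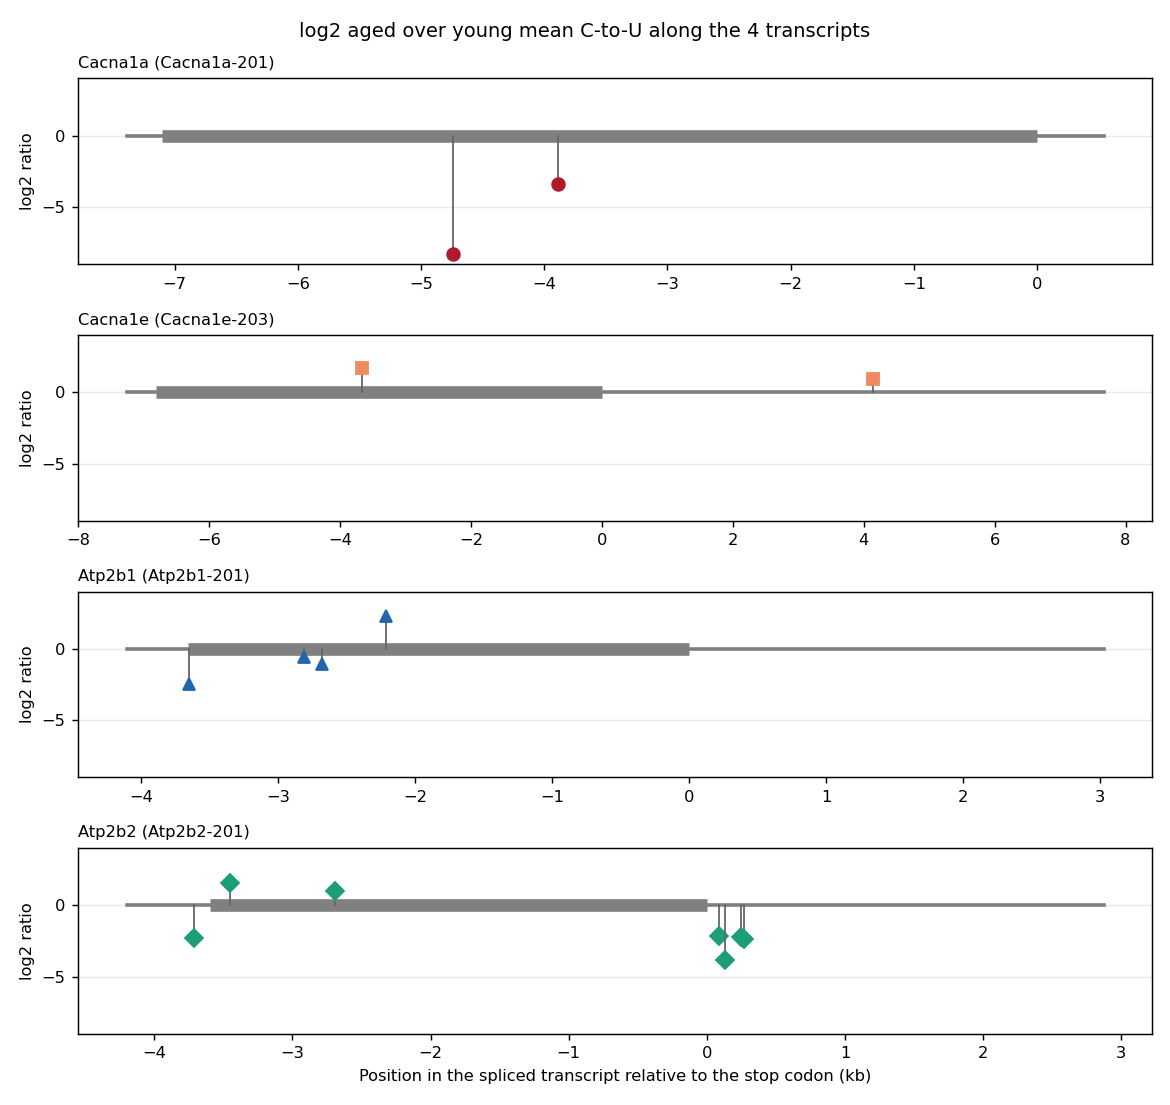
The log2 ratio of aged over young mean C-to-U (y axis) at each site along the spliced transcript of the 4 genes (x axis, kilobases from the stop codon). The thick bar is the coding sequence and the thin line the UTRs, and Atp2b1 site 2, which is in no exon of this transcript, is not drawn. The 4 low points just after the stop codon are the 3' UTR sites of Atp2b2, and the 3' UTR site of Cacna1e lies far downstream and is high.

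Set side by side, entry and extrusion genes each held sites in both directions. By mean, 2 of 4 channel sites and 4 of 12 pump sites were higher in aged cells. By share of methylated cells it was 3 of 4 and 8 of 12, against 75.4% of listed sites, and by conversion 2 of 4 and 6 of 12, against 31.9% of the 2036 sites that had methylated aged cells. The median log2 ratio of the mean was -1.25 for channel sites and -1.59 for pump sites, and -0.87 over the 2036 sites. In each pair 1 gene was higher and the other lower when mean C-to-U was summed over listed sites. The sum for Cacna1a was 4.35% in young against 0.0300% in aged cells, and for Cacna1e 4.21% against 11.1%. For Atp2b1 it was 3.16% against 9.64%, and for Atp2b2 13.1% against 3.17%. Most of the Atp2b1 sum came from site 2 in the retained intron, 2.86% in young and 8.99% in aged cells. The mean was lower at 3 of the 5 Atp2b1 sites. Most of the Atp2b2 sum at both ages came from its 4 sites in the 3' UTR, which can lie on the same reads. Site 7 alone gave 5.60% in young and 1.11% in aged cells. The 2 coding sites of Atp2b2 were higher in aged cells and its 5' UTR site lower, so its sum does not hold along the gene. Most of the Cacna1a sum in young cells came from site 1, 4.17%. By these sums the order of the genes was Atp2b2, Cacna1a, Cacna1e and Atp2b1 in young cells. In aged cells it was Cacna1e, Atp2b1, Atp2b2 and Cacna1a. The sums run over listed sites only, 2 each for Cacna1a and Cacna1e, 5 for Atp2b1 and 7 for Atp2b2. These orders thus do not rank the methylation of the genes. Without replicates it is not known which neighbours in these orders differ beyond the spread between mice. Sites of a gene share cells and reads and are not replicates, and 4 sites against 12 give no test of entry against extrusion.

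By region, 1 of 3 coding channel sites and 3 of 6 coding pump sites were higher by mean, where 57.8% of the 804 listed coding sites were. In 3' UTRs it was 1 of 1 channel sites and 0 of 4 pump sites, where 24.1% of the 697 were. By share, 8 of the 9 coding sites of the 4 genes were higher in aged cells, and Cacna1a site 1 was the exception. Of all listed coding sites 94.7% were higher by share. The intervals of the 2 shares did not overlap at 11 of the 16 sites, against 62.5% of listed sites.

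The 16 sites fell into 5 combinations of direction. At 4 sites the share and the conversion were both higher in aged cells, both of Cacna1e and sites 2 and 5 of Atp2b1, a combination found at 21.9% of listed sites. At 2 sites, the coding sites of Atp2b2, a higher share outweighed a lower fraction within cells (18.2% of listed sites). At 5 sites, Cacna1a site 2, sites 1, 3 and 4 of Atp2b1 and site 1 of Atp2b2, the lower fraction outweighed the higher share (35.3%). The 4 sites in the 3' UTR of Atp2b2 had a lower share, a higher fraction and a lower mean (8.37%). Cacna1a site 1 was lower in both (14.0%).

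The fraction within aged methylated cells was between 0.862% and 1.62% at 6 of the 16 sites and at least 4.86% at the other 10. These 6 were the 2 sites of Cacna1a, sites 1, 3 and 4 of Atp2b1 and site 1 of Atp2b2. All 6 had a lower mean, as did 661 of the 711 listed sites with an aged fraction under 2%. In young cells none of the 16 was under 2%, and 7.15% of listed sites were. Over the table, 34.9% of sites with a methylated aged cell had an aged fraction under 2%, a limit set after the values were seen, so the 6 of 16 are near that background. At these 6 sites a single converted read per methylated cell would need at least 62 to 116 reads in at least 1 of the aged cells, by the same reckoning as at Cacna1a site 1. Read depth at these sites was not tested.

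**Figure D3:**
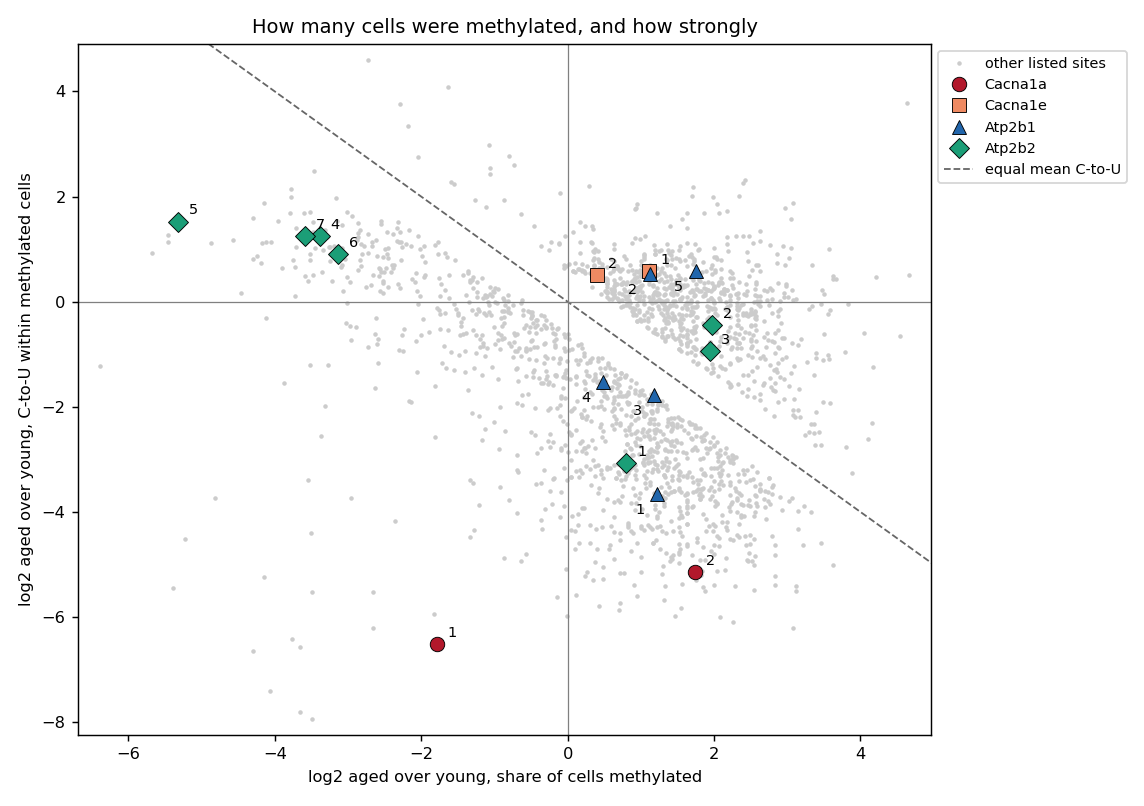
The log2 ratio of aged over young share of methylated cells (x axis) against that of conversion (y axis) for the 2036 listed sites with a methylated aged cell, with site numbers beside the 16 member sites. The dashed line marks equal mean C-to-U, and the table lists no site in the empty band along it. The 3' UTR sites of Atp2b2 stand at the upper left, Cacna1a site 1 at the lower left, and both Cacna1e sites at the upper right.

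Listed sites were not shared between paralogous genes. The coding sequences of Cacna1a-201 and Cacna1e-203 were identical at 70.6% of 6607 aligned bases, and those of Atp2b1-201 and Atp2b2-201 at 73.2% of 3589. Of the 9 coding sites 8 could be aligned to the paralogue, the aligned base was also C at 4, and an A preceded it at 2, sites 3 and 5 of Atp2b1. In no case did a listed site align with a listed site of the paralogue. The closest were Cacna1a site 2 and Cacna1e site 1, 6 aligned bases apart, in a stretch where 8 and 10 of the 21 bases around them were identical, so that the alignment there is loose. Their directions by mean were opposite. Sites 3 of Atp2b1 and Atp2b2 came 55 to 60 aligned bases from a listed site of the other pump.

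Other genes of calcium channels and calcium transport were taken from a list of 100 annotated genes, 4 of them the genes above. Of the others, 12 had a listed site, 18 sites in all, with 4 higher and 14 lower in aged cells by mean (22.2% higher) and a median log2 ratio of -1.03, beside 41.5% higher and -0.87 over the table. In 3' UTRs 1 of 9 was higher, against 24.1% of listed 3' UTR sites, and in coding sequence 3 of 7, against 57.8% of listed coding sites.

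Among channel subunits, 0 of 8 sites in 4 genes were higher. Most of them, all sites of Cacnb4 and Cacng2, lay in 3' UTRs, where 24.1% of listed sites were higher. Cacnb4, a cytoplasmic beta subunit, had a mean of 3.18% in young against 1.67% in aged cells at its strongest site, and a share of methylated cells of 9.68% (8.58 to 10.9) against 4.73% (3.40 to 6.38), and its other site was lower too. Cacng2, which also serves as an auxiliary subunit of AMPA receptors, had 3 lower sites within its 3' UTR, with means between 0.205% and 0.375% in young and between 0.103% and 0.147% in aged cells. Unc80, a part of the NALCN leak channel complex, had 2 lower sites. It was on the list, although NALCN is not one of the voltage-gated calcium channels. Cacna2d3, an alpha2delta subunit, had a mean of 1.78% in young against 0.000626% in aged cells, but on 52 methylated young cells and 1 methylated aged cell, so its aged value is that of a single cell.

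Among the other pumps and exchangers, 2 of 6 sites in 5 genes were higher, against 41.5% of all listed sites. Most of these sites lay in 3' UTRs, where 24.1% of listed sites were higher. Atp2a2, the calcium pump of the endoplasmic reticulum, had a mean of 0.447% in young against 0.0543% in aged cells, and a share of methylated cells of 3.96% (3.25 to 4.78) against 1.54% (0.821 to 2.61). The sodium-calcium exchanger gene Slc8a1 had a mean of 0.715% in young against 0.244% in aged cells, and its relative Slc8a2 had 0.674% against 1.12%. The potassium-dependent exchanger gene Slc24a4 had a mean of 0.328% in young against 1.50% in aged cells, on 17 methylated aged cells. Both sites of Slc24a2 were lower. Within exchanger families the direction of the mean thus differed between genes, on few methylated aged cells. The 2 membrane pump genes differed in direction by the sum over sites, while by site 2 of 5 in Atp2b1 and 2 of 7 in Atp2b2 had a higher mean.

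Nptn encodes neuroplastin, an auxiliary subunit of the plasma membrane calcium pumps. Its coding site at position 58618781 on chromosome 9 had a mean of 0.851% in young against 6.93% in aged cells, and its share was 2.13% (1.62 to 2.76) against 8.51% (6.72 to 10.6). Its other site, also coding, had 0.0598% against 0.0105%. Its 2 sites thus differed in direction. Of channels in internal stores and their sensors, Ryr2, a calcium release channel, had a mean of 0.368% in young against 0.236% in aged cells, and Stim2, a sensor of store calcium, had 0.273% against 1.06%. Ryr2 had 8 methylated aged cells and Stim2 12.

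**Figure D4:**
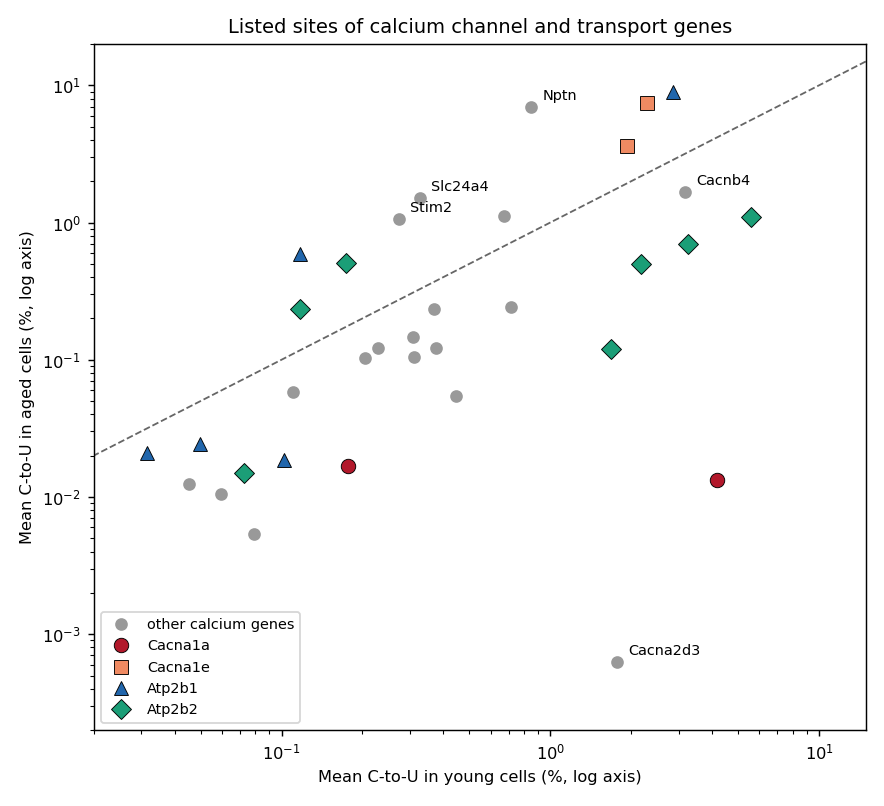
Mean C-to-U in young (x axis) and aged (y axis) cells, in percent on log axes, at the 16 sites of the 4 genes and at 18 listed sites of 12 other calcium channel and transport genes (grey). The dashed line marks equal means. The grey points include Unc80 of the NALCN leak channel complex. Of the grey points 14 lie below the line, and the 4 above it belong to Nptn, Slc24a4, Stim2 and Slc8a2.

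The sites most like each gene's site of largest difference were sought among sites of other genes in the same transcript region, by the distance between their log2 shares and log2 conversion at both ages (4 values, over 2 ages). For Atp2b2 site 7 they were 3' UTR sites of App and Ywhaz, at distances of 0.27 and 0.54. The App site, at position 84955232 on chromosome 16, had methylated cells at 24.3% of young and 2.13% of aged cells, and conversion of 25.9% and 48.7%. For Cacna1e site 1 they were coding sites of Dhx15 and Pcdh9, at 0.44 and 0.72. For Atp2b1 site 2 they were sites in noncoding exons of Tulp4 and Xist, at 0.83 and 1.31. For Cacna1a site 1 the nearest of 795 coding sites, in Caskin1 and Gabbr2, were farther, at 2.17 and 2.36. In Caskin1 conversion was 82.3% in young against 1.79% in aged cells.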

How the data were processed

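Per the submitters' processing notes, STAR 2.7.5 and the build mm10 were used. The series' design text credits Bullseye with the C-to-U sites. How reads were filtered, whether molecular identifiers were collapsed and which test the authors ran: not given in the sources used here. Per the file headers, the authors deposited for each site the percent of cells methylated, the counts of methylated cells, the C-to-U fraction over all cells, a log2 ratio, a p-value and an adjusted p-value. Young values describe cells of a companion series. The authors' log2 ratio is young over aged; ratios here were recomputed as aged over young. The fraction within methylated cells was computed as mean over share, and cell totals were recovered from counts and percents at 2055 sites for young and 2036 for aged cells.

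Deposited positions were read as counted from 0 and are printed counted from 1, since the edited base was then C at 16 of 16 member sites and otherwise at 3. Sites were placed on the highest-ranked GENCODE M21 transcript (protein coding first, then by APPRIS principal status) with an exon there, by gene name for 781 genes, by an older name for 6 and not for 2. Coding sequences were aligned with Biopython 1.88, and intervals came from scipy 1.17.1. Site classing and placement were tested on simulated data. Named were all sites of the 4 genes, all listed genes of the calcium list, and the 2 most alike sites per gene. The members and lists were chosen with earlier results of these data known. Alternatives were other measures of direction, minimum cell numbers, thresholds and site definitions. Per-cell expression was not analysed here, and the result of a further marker list is not reported here.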

Additional observations from a re-analysis of the deposited data

How the results depend on the processing

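Of the 4 channel sites 2 were higher in aged cells by mean, and of the 12 pump sites 4. With sites of an absolute log2 ratio of at least 1, 1 of 3 channel sites was higher, since Cacna1e site 2 drops out. By share of methylated cells 8 of 12 pump sites were higher, and with at least 50 methylated cells over both ages 2 of 7. Under the other alternatives the counts of higher sites were 2 or 3 for channels and 4 or 6 for pumps, but fewer sites were kept under some. With an adjusted p under 0.01 in the authors' deposited table, 2 of 3 channel and 4 of 7 pump sites were higher. An alternative added after seeing the data drops sites with an aged fraction within methylated cells under 2%. With it 2 of 2 channel and 4 of 8 pump sites were higher. All 6 member sites that it drops had a lower mean. A low aged fraction itself lowers the aged mean, so this alternative cannot test the direction. The direction of Atp2b2 at its site of largest difference turned to a log2 ratio of 1.25 when taken within methylated cells, and those of the other 3 genes did not turn with share, within methylated cells or summed over sites. No paired analysis was possible because the table gives 1 value per age. The number of methylated aged cells, 2 to 109 per site, limits the precision.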
